A study of Mus musculus with 16 samples.

Results

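Interferon response genes, the antiviral and antimicrobial genes that cells switch on after sensing an interferon, were followed across all 16 arrays of the series. The list named 43 genes, of which 41 were measured by a probe set (a group of probes that the array reads as 1 value) with a single gene symbol. Where a gene had several probe sets, the one with the highest log2 intensity, averaged over the 16 arrays, was used. Of the 41 measured genes, 40 were tested, because they reached a log2 intensity of 6 on at least 2 arrays, as did 13007 of the 18193 genes named in the series. Oasl2, of the oligoadenylate synthetase family, lay between 3.7 and 6.07 and was not tested. Isg15 and Ifi44 had no probe set with a single symbol and were not analysed here.

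Interferons bind receptors on the cell surface, which activate the kinases JAK1, JAK2 and TYK2 and, through them, transcription factors in the nucleus. Type I interferon acts mainly through the interferon-stimulated response element (ISRE), which a complex with STAT2 and IRF9 binds, and interferon gamma mainly through the gamma-activated site (GAS). Activated T cells make interferon gamma themselves and also respond to it. STAT3 is the transcription factor that IL-6 activates.

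The cells were naive mouse CD4+ T cells (sorted as CD44- CD62L+) that had been stimulated for 3 days through CD3 and CD28. WT cells had the genotype "STAT3floxed" and STAT3-deficient cells the genotype "CD4 Cre; STAT3floxed", so both carried the floxed allele, and the Cre recombinase is driven from Cd4 sequences, which are active from the double-positive stage of thymocyte development onwards. Each genotype was cultured in medium, with IL-6 at 10 ug/ml, with TGFb at 2.5 ug/ml, or with both, the doses being given in the unit of the labels. This gave 8 groups of 2 arrays, numbered replicate 1 and replicate 2. No strain or age was given. Nothing in the labels states that replicates came from separate animals or cultures, but sex-linked genes, given below, differed between the replicate numbers. The error behind each p-value is that among the samples at hand.

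Several facts of the whole series bear on the values below. Stat3 itself lay at 10.22 to 12.18 on the WT arrays and at 8.4 to 10.46 on the STAT3-deficient arrays (the sources used here do not give whether its probe set lies in the deleted part). These ranges overlap because the array labelled STAT3-deficient TGFb replicate 2 read 10.46, above WT medium replicate 1 at 10.22. Within a replicate number they did not overlap, with 8.4 to 9.01 against 10.22 to 11.82 in replicate 1 and 8.57 to 10.46 against 11.41 to 12.18 in replicate 2. The array labelled STAT3-deficient TGFb replicate 1 went against its label in Il17a, the cytokine of Th17 cells. It read Il17a at 9.55, whereas the WT arrays with IL-6 and TGFb read 10.16 and 11.58 and the other 13 arrays 5.95 to 6.51. Among those 13, the STAT3-deficient arrays with IL-6 and TGFb read 6.29 and 6.51. The array that goes against its label, as it is called below for its Il17a value alone, read Stat3 at 8.46, within the STAT3-deficient range. Whether arrays were exchanged was not tested. The replicate numbers also differed in sex-linked genes and in the probe sets of Actb, whose difference can reflect RNA quality. Xist lay at 11.91 to 13.21 on the replicate 1 arrays and at 6.64 to 7.6 on the replicate 2 arrays, the Y-linked gene Eif2s3y at 3.81 to 4.52 and 9.84 to 10.98, and the difference between the 5' and 3' probe sets of Actb at -0.5 to -0.11 and -1.71 to -0.88. By these sex-linked genes the replicate 1 arrays read as female and the replicate 2 arrays as male, so the 2 arrays of a group came from different animals. RNA quality itself was not measured here. The part of sex and of what lies behind the Actb difference in any difference between the replicates cannot be told apart from that of the number itself. In a bulk culture, fewer cells of a type and less RNA per cell cannot be told apart. The summed level of the T cell markers was 14.54 to 15.15 on the log2 scale over the 16 arrays. Their median was 11.3, and each of the 9 measured reached log2 8 on at least 1 array. Under that level on all 16 arrays lay 7 of 7 B cell, 5 of 5 conventional dendritic cell, 8 of 9 monocyte, macrophage and granulocyte, 3 of 4 NK cell, 4 of 6 plasmacytoid dendritic cell, 2 of 2 CD8 T cell and 3 of 4 stromal or epithelial markers. The summed level of the plasmacytoid dendritic cell markers, a cell type known for making type I interferon, was 9.34 to 9.65 on the log2 scale over the 16 arrays.

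A sequence shared by many members is the ISRE in their promoters. RefSeq promoters (GRCm38.p6, 250 bases before to 50 after each start) were found for 31 of the 43 genes, 37 promoters in all. The ISRE core GAAANNGAA, searched on both strands, occurred in 19 of the 37 promoters (51.4%), which belong to 18 genes, against 8.56% of 32851 promoters of all genes. The GAS core TTCNNNGAA occurred in 9 of the 37 (24.3%), against 8.3% of all promoters. Usp18, Iigp1 and Rtp4, with an SD of 1.64, 1.47 and 1.13 over the 16 arrays, were not among the 31 and were not searched. The 6 windows below come from those of the 31 that, with an ISRE core match before the start, varied most over the 16 arrays. Each holds 100 bases and is written 5′ to 3′ on the strand of the gene, and capitals mark the ISRE core on either strand.
Ifih1, chr2:62646314-62646413, minus strand: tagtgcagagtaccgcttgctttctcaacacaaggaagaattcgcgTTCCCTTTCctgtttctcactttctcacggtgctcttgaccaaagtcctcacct
Gbp2, chr3:142620559-142620658, plus strand: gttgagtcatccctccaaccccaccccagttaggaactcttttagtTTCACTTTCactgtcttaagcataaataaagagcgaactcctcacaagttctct
Gbp7, chr3:142530236-142530335, plus strand: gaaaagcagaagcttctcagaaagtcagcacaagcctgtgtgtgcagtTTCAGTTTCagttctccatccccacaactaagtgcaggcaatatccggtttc
Irgm1, chr11:48871421-48871520, minus strand: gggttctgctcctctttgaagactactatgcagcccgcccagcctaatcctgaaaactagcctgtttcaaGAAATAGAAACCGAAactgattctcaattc
Ifit3, chr19:34583381-34583480, plus strand: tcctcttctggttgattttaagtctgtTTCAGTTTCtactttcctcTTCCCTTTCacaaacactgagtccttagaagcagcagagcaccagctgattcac
Ifit1, chr19:34640759-34640858, plus strand: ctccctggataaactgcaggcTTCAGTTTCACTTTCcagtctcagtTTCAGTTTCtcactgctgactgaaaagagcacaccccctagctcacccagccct
Relative to the start, the matches lay at -112 in Ifih1, -58 in Gbp2 and -52 in Gbp7. Irgm1 held 2 matches that overlap, Ifit3 held 2 in its window, and Ifit1 held 3, of which 2 overlap. A match describes letters in this window and does not show that a factor binds there. The windows of Samhd1 and Xaf1, which are described below, held no ISRE core. That of Samhd1 held a GAS core, and that of Xaf1 did not.

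The highest and lowest levels of the list as a whole stood on single arrays, not on both arrays of a group. The mean over the 40 tested members was highest on the replicate 1 arrays with IL-6 alone, at 9.61 in WT and 9.66 in STAT3-deficient cells. It was lowest on STAT3-deficient TGFb replicate 1, at 7.83, and on WT medium replicate 1, at 7.97. On the same arrays the mean over all tested genes stayed between 8.17 and 8.34. The 2 replicate 1 arrays with IL-6 held the highest value of 29 of the 40 members, 14 on the WT array (12.7% of all genes) and 15 on the STAT3-deficient array (10.2% of all genes). WT medium replicate 1 and STAT3-deficient TGFb replicate 1 each held the lowest value of 12 members, beside 6.53% and 11.5% of all genes.

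**Figure D1:**
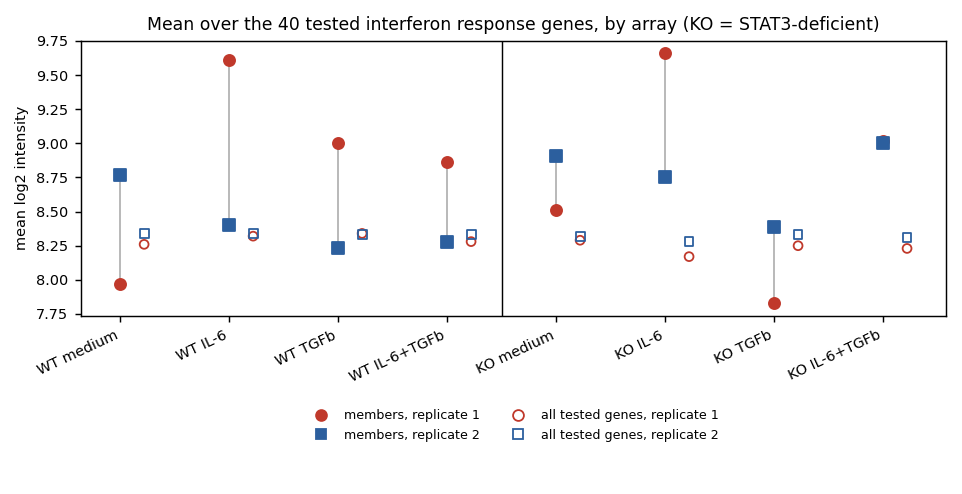
Mean log2 intensity over the 40 tested interferon response genes (filled) and over all tested genes (open) on each of the 16 arrays, by group on the x axis; circles are replicate 1, squares replicate 2, and grey lines join the replicates of a group. The members' means range from 7.83 to 9.66, whereas the means of all genes lie between 8.17 and 8.34.

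Within groups, the replicates differed in opposite directions. Replicate 1 exceeded replicate 2 by a mean of 1.21 over the members in WT cells with IL-6, where 38 of 40 members were higher, and by 0.91 in STAT3-deficient cells with IL-6, where 39 were higher. It also exceeded replicate 2 by 0.76 with TGFb and by 0.58 with IL-6 and TGFb in WT cells. In medium the order was turned, with a mean difference of -0.8 in WT cells (30 of 40 members lower in replicate 1) and of -0.4 in STAT3-deficient cells (28 lower). With TGFb, STAT3-deficient cells showed a mean difference of -0.56, which rests on the array that goes against its label, and with IL-6 and TGFb a mean difference of 0.02. The median difference over all genes lay between -0.1 and 0.04 in these 8 groups.

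**Figure D2:**
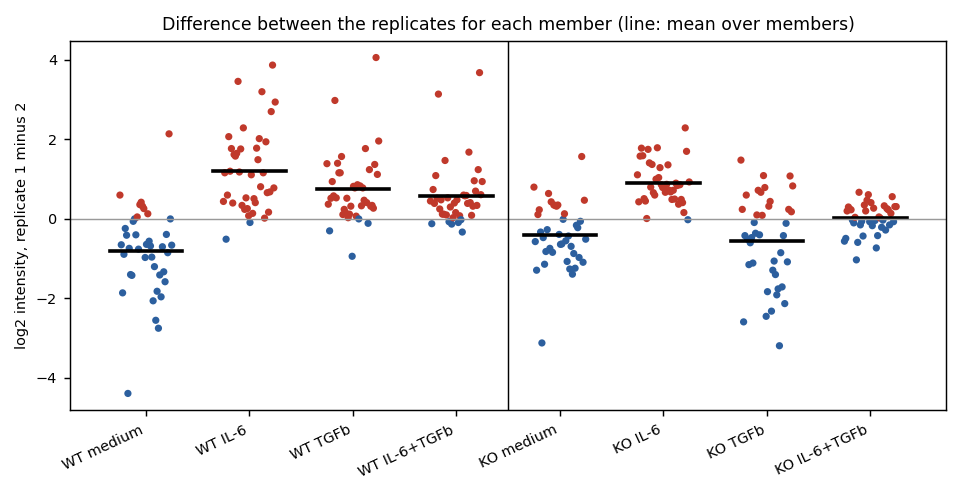
Log2 intensity of replicate 1 minus replicate 2 (y axis) for each of the 40 tested members in each of the 8 groups (x axis); points above 0 are red, those below blue, and the black line is the mean over the members. The mean is 1.21 in WT cells with IL-6 and -0.8 in WT cells in medium.

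Within replicate number, the mean change against medium differed in sign between the numbers in 4 of 6 comparisons. IL-6 against medium gave a mean difference over the members of 1.64 in replicate 1 and of -0.37 in replicate 2 in WT cells, and of 1.16 and -0.16 in STAT3-deficient cells. TGFb against medium in WT cells gave 1.03 and -0.53, and IL-6 and TGFb against medium 0.9 and -0.48. In STAT3-deficient cells TGFb against medium gave -0.68 and -0.52, and IL-6 and TGFb against medium 0.51 and 0.1. An alternative chosen after seeing the data exchanged the STAT3-deficient replicate 1 arrays of TGFb and of IL-6 and TGFb. With it, these replicate 1 values became 0.51 and -0.68. Whether these arrays had been exchanged was not tested. These means carry no test.

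The heat map of the 40 members shows the same contrast between arrays gene by gene. The SD over the 16 arrays ranged from 0.3 for Mx2 to 1.94 for Xaf1, with a median of 0.65, and was next highest for Usp18 (1.64), Iigp1 (1.47) and Ifih1 (1.44). Correlation with the mean over all 40 members, itself included, was highest for Trim30a (0.96), Ifit1 (0.93), Gbp7 and Igtp (both 0.89) and lowest for Isg20 (0.15), Cmpk2 (0.27), Samhd1 (0.28) and Ifih1 (0.34). These are Pearson correlations over 16 arrays that share groups and replicate numbers, given as a description.

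**Figure D3:**
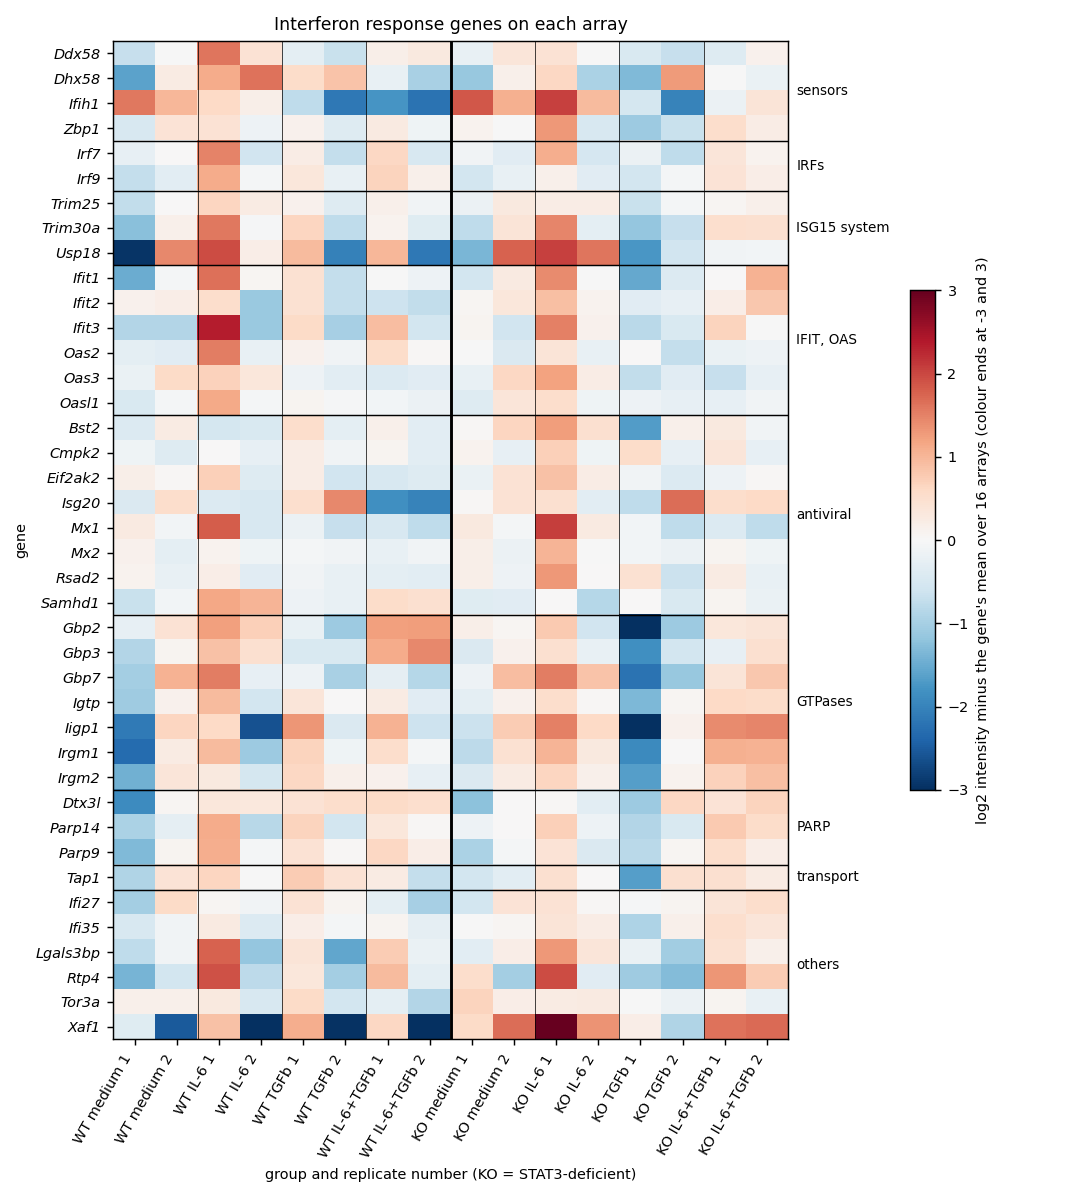
Log2 intensity of each tested member (rows, grouped by role) on each of the 16 arrays (columns, by group and replicate number), as the difference from the gene's mean over the 16 arrays; red is higher, blue is lower, and the colour ends at -3 and 3. The replicate 1 arrays with IL-6 are the reddest columns, and Ifih1 is blue on 7 of the 8 arrays with TGFb.

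The central question of the design was how loss of STAT3 alters the response to these cytokines, and few members passed the test. Every comparison was fitted in limma over all 13007 tested genes, and a gene was called at a Benjamini-Hochberg adjusted p under 0.05. For genotypes and cytokines this fit left out the replicate number, and a fit with it follows below. Between the genotypes under IL-6 and TGFb, 0 of 40 members were called, beside 1.19% of all genes, and 5 members had an unadjusted p under 0.05 (12.5%, beside 10.1% of all genes). The members' median difference, STAT3-deficient minus WT, was 0.34, with 30 of 40 above 0, beside an all-gene median of 0.01. Under IL-6 alone 1 member was lower, Samhd1, beside 2.73% of all genes called lower and 3.29% in either direction. The median over the members was 0.26, with 25 above 0. Under TGFb 0 members were called, beside 0.0% of all genes, with 1 member at an unadjusted p under 0.05 (2.5%, beside 0.684% of all genes) and a median of -0.44. In medium 0 were called, beside 0.0% of all genes and with 0 members at an unadjusted p under 0.05 (0.131% of all genes), although 38 of 40 differences were above 0 (median 0.24, beside 50.5% of all genes above 0). Averaged over the 4 conditions, 0 were called beside 0.969% of all genes, with 5 at an unadjusted p under 0.05 (12.5%, beside 15.9% of all genes) and a median of 0.14. Without STAT3-deficient TGFb replicate 2, the array with the high Stat3 value, 1 member was called on this average and 391 of all genes in place of 126.

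These medians also depended on the replicate number. The mean difference over the members under IL-6 and TGFb was 0.16 in replicate 1 and 0.72 in replicate 2, and under IL-6 alone 0.06 and 0.36. Under TGFb it was -1.17 in replicate 1, the pair with the array that goes against its label, and 0.15 in replicate 2. With those 2 arrays exchanged, these replicate 1 values became -1.04 under IL-6 and TGFb and 0.02 under TGFb. In medium the difference was 0.54 and 0.14.

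The cytokine comparisons within a genotype share their medium arrays. In WT cells, IL-6 and TGFb against medium called 1 of 40 members, Ifih1, as lower, beside 0.853% of all genes called lower and 3.0% in either direction; the median over the members was 0.21. IL-6 against medium called 0 members beside 0.284% of all genes, with 7 at an unadjusted p under 0.05 (17.5%, beside 12.6% of all genes) and a median of 0.65. TGFb against medium called 0 members beside 0.223% of all genes, with 2 at an unadjusted p under 0.05 (5.0%, beside 10.8% of all genes) and a median of 0.3. In STAT3-deficient cells the combination, IL-6 alone and TGFb alone each called 0 members against medium, beside 0.138%, 0.0% and 0.354% of all genes. There, 1, 0 and 4 members had an unadjusted p under 0.05 (2.5%, 0.0% and 10.0%, beside 5.98%, 1.33% and 12.4% of all genes), and the medians were 0.33, 0.46 and -0.54. Without STAT3-deficient TGFb replicate 2, TGFb called 1 member and 247 of all genes in place of 46.

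TGFb was also compared over all arrays, 8 with it against 8 without. Ifih1 and Oas3 were lower with TGFb, 2 of 40 members beside 3.79% of all genes called lower and 9.25% called in either direction. The members' median was -0.19, with 14 above 0. The interaction asked whether the response to IL-6 differs between the genotypes, and called 0 members beside 0.354% of all genes, with 3 at an unadjusted p under 0.05 (7.5%, beside 12.1% of all genes) and a median of 0.37. Without STAT3-deficient TGFb replicate 2 the interaction called 1 member and 160 of all genes in place of 46.

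With the replicate number as a block in the fit, further members were called. These were Ifih1 under IL-6 and TGFb between the genotypes (1 of 40, beside 2.48% of all genes in either direction), and Ifih1, Samhd1 and Xaf1 averaged over conditions (3 of 40, beside 5.36%). Between the genotypes under IL-6, Samhd1 was again called (beside 11.5% of all genes). In WT cells Ifih1 and Gbp3 were called for IL-6 and TGFb (2 of 40, beside 6.4%), Samhd1 for IL-6 (beside 1.68%) and Ifih1 for TGFb (beside 0.477%). In STAT3-deficient cells Ifih1 was called for TGFb (beside 1.51%), and over all arrays Ifih1, Mx1 and Oas3 (3 of 40, beside 16.3%).

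**Figure D4:**
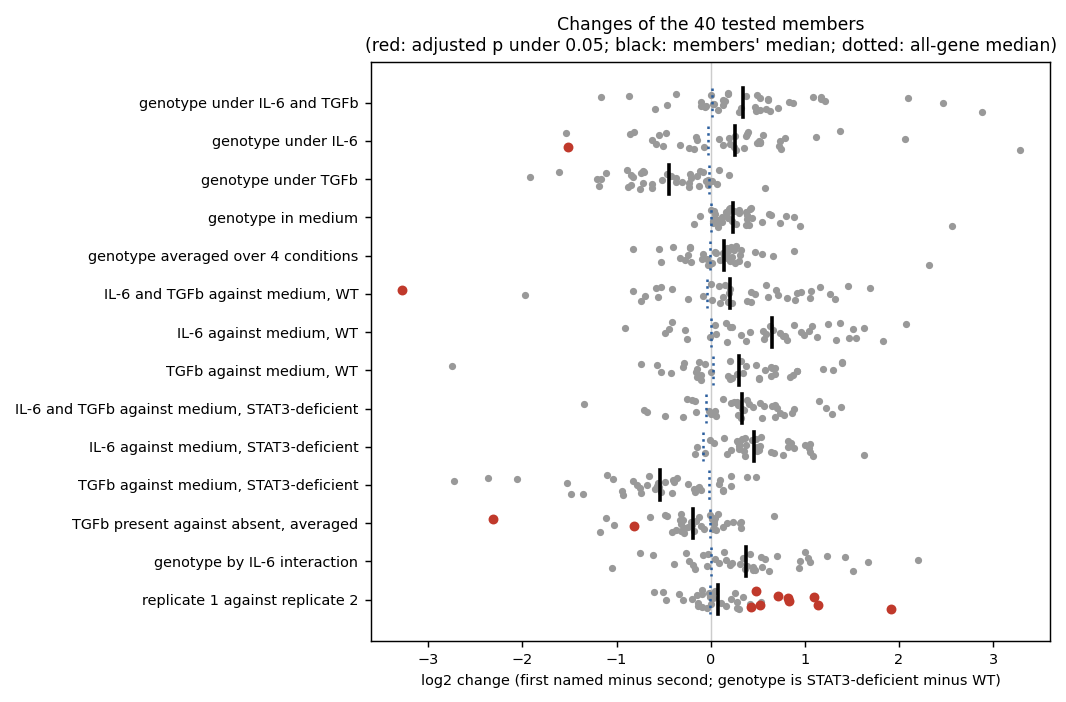
Log2 change of each of the 40 tested members (x axis) in each comparison (y axis); red points passed an adjusted p under 0.05 in limma, black bars mark the members' median and dotted bars the median of all tested genes. Most red points stand in the comparison of the replicate numbers, where 9 members were called.

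The replicate numbers were compared in the same way, with the 8 group means in the fit. Replicate 1 was higher for 9 of 40 members, beside 7.12% of all genes called higher, and lower for 0 members, beside 12.7% called lower. In either direction 19.8% of all genes were called, close to the 9 of 40. The 9 members were Cmpk2, Ifih1, Ifit3, Irf7, Mx1, Rsad2, Rtp4, Tor3a and Xaf1. The largest differences were those of Xaf1 (1.92, SE 0.55, limma adjusted p = 0.0334), Rtp4 (1.14, SE 0.33, adjusted p = 0.0364) and Ifit3 (1.1, SE 0.34, adjusted p = 0.0455). The other probe set of Rtp4 gave 0.31, and that of Cmpk2 gave 0.11 beside 0.48 for the one used. Leaving out any 1 of the 16 arrays left between 2 and 6 calls, and Cmpk2 was called in all 16 of these fits.

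Among the sensors of viral nucleic acid, 4 genes were measured, and Ifih1 stood out by its level with TGFb. Ifih1 encodes MDA5, a helicase that detects long double-stranded RNA in the cytosol. In the following, 2 values for a group are replicate 1 and then replicate 2, as log2 intensity. In WT cells Ifih1 read 10.34 and 9.74 in medium, 9.35 and 8.92 with IL-6, 7.99 and 6.6 with TGFb, and 6.99 and 6.54 with both. STAT3-deficient cells read it at 10.61 and 9.81 in medium, 10.81 and 9.7 with IL-6, 8.22 and 6.74 with TGFb, and 8.58 and 9.14 with both. All 4 WT arrays with TGFb lay below all 4 without it, and in STAT3-deficient cells the same order held. Over all 16 arrays the groups overlapped, because 1 STAT3-deficient array with IL-6 and TGFb read 9.14 and 1 WT array with IL-6 read 8.92.

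Averaged over genotype and IL-6, Ifih1 was 4.95-fold lower with TGFb (log2 change -2.31, SE 0.29, limma adjusted p = 0.00088), with values of -2.33 in replicate 1 and -2.29 in replicate 2. In WT cells with IL-6 and TGFb it was 9.71-fold lower than in medium (-3.28, SE 0.58, adjusted p = 0.012). That call was lost without WT medium replicate 1 (-2.98, adjusted p = 0.127), WT IL-6 and TGFb replicate 1 (-3.5, 0.0677) or WT IL-6 and TGFb replicate 2 (-3.05, 0.108). TGFb alone against medium gave -2.75 in WT cells (limma adjusted p = 0.131, and 0.0201 with the replicate number as a block) and -2.73 in STAT3-deficient cells (0.0823, and 0.0134 with the block). Under IL-6 and TGFb the STAT3-deficient arrays lay above the WT arrays without overlap, by 2.1 (SE 0.58, adjusted p = 0.153, and 0.0198 with the block). Averaged over the 4 conditions, the genotypes differed by 0.89 (adjusted p = 0.172, and 0.0314 with the block).

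The other sensors were not called with TGFb. Over all arrays Ddx58, which encodes the RNA sensor RIG-I, changed with TGFb by -0.48 (limma adjusted p = 0.147), Zbp1, a sensor of Z-form nucleic acid, by -0.28 (0.55) and Dhx58 by -0.01 (0.99), so all 4 values lay below 0, and the difference between the sensors was not tested. Dhx58, which encodes LGP2, a regulator of the related helicases, had the second largest SD of the sensors. In WT cells Dhx58 read 6.36 and 8.22 in medium, 9.1 and 9.61 with IL-6, 8.52 and 8.83 with TGFb, and 7.75 and 7.01 with both. STAT3-deficient cells read Dhx58 at 6.83 and 8.12 in medium, 8.6 and 7.02 with IL-6, 6.66 and 9.25 with TGFb, and 7.97 and 7.77 with both. Replicate 1 minus replicate 2 reached -2.59 with TGFb in STAT3-deficient cells, and Dhx58 passed no test. Ddx58 ranged from 7.79 to 10.1 and Zbp1 from 8.12 to 10.51, both with 0 calls.

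The interferon regulatory factors Irf7 and Irf9 were highest on WT IL-6 replicate 1. Irf7 drives the genes of type I interferon, and Irf9 is a DNA-binding partner of STAT2. In WT cells Irf7 read 6.95 and 7.19 in medium, 8.67 and 6.6 with IL-6, 7.4 and 6.46 with TGFb, and 7.8 and 6.71 with both. STAT3-deficient cells read Irf7 at 7.08 and 6.85 in medium, 8.28 and 6.69 with IL-6, 7.02 and 6.43 with TGFb, and 7.54 and 7.29 with both. Replicate 1 was the higher one in 7 of 8 groups for Irf7, and the difference between the numbers passed the test (0.82, SE 0.23, limma adjusted p = 0.0312). In WT cells Irf9 read 8.23 and 8.64 in medium, 10.07 and 8.88 with IL-6, 9.3 and 8.72 with TGFb, and 9.62 and 9.1 with both. STAT3-deficient cells read Irf9 at 8.39 and 8.72 in medium, 9.11 and 8.6 with IL-6, 8.39 and 8.9 with TGFb, and 9.37 and 9.14 with both. Irf9 passed no test; its change with IL-6 in WT cells was 1.04 (limma adjusted p = 0.286).

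Of the ISG15 system and the ubiquitin ligases, Usp18, Trim30a and Trim25 were measured and none was called in the 14 comparisons. Usp18 removes ISG15 from proteins and restrains signalling at the type I receptor. In WT cells Usp18 read 5.0 and 9.39 in medium, 9.91 and 8.14 with IL-6, 8.89 and 5.91 with TGFb, and 8.95 and 5.81 with both. STAT3-deficient cells read Usp18 at 6.58 and 9.71 in medium, 10.0 and 9.55 with IL-6, 6.21 and 7.36 with TGFb, and 7.84 and 7.87 with both. Within WT medium, replicate 1 minus replicate 2 was -4.39, and Usp18 had the second largest SD of all members, 1.64. Trim30a, an interferon-induced TRIM protein, followed the mean of the list most closely. In WT cells Trim30a read 8.41 and 9.82 in medium, 11.26 and 9.63 with IL-6, 10.32 and 8.92 with TGFb, and 9.79 and 9.3 with both. STAT3-deficient cells read Trim30a at 8.92 and 10.06 in medium, 11.14 and 9.39 with IL-6, 8.51 and 8.99 with TGFb, and 10.19 and 10.15 with both. Trim25, the ubiquitin ligase known for activating RIG-I, ranged from 9.66 to 11.04.

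The IFIT and OAS families had 6 tested members. The IFIT proteins bind viral RNA, and the OAS enzymes make the oligoadenylates that activate RNase L. Oas3 was the member called in the comparison of TGFb. In WT cells Oas3 read 6.19 and 6.95 in medium, 7.07 and 6.73 with IL-6, 6.23 and 6.07 with TGFb, and 5.98 and 6.04 with both. STAT3-deficient cells read Oas3 at 6.17 and 7.01 in medium, 7.6 and 6.6 with IL-6, 5.64 and 6.04 with TGFb, and 5.7 and 6.13 with both. All 8 arrays with TGFb lay at 5.64 to 6.23, near the level minimum of 6, where changes depend on the background. Of the 8 without TGFb, 6 lay above 6.23, and the 2 that did not were the replicate 1 arrays in medium. Averaged, Oas3 was 1.75-fold lower with TGFb (-0.81, SE 0.19, limma adjusted p = 0.0229), with values of -0.87 in replicate 1 and -0.75 in replicate 2. The call was lost without STAT3-deficient IL-6 and TGFb replicate 1 (adjusted p = 0.0632), STAT3-deficient medium replicate 2 (0.0507), WT IL-6 replicate 1 (0.0541), WT IL-6 and TGFb replicate 1 (0.058) or 2 (0.0501), or WT TGFb replicate 2 (0.0626). It was also lost without both STAT3-deficient replicate 1 arrays with TGFb (-0.71, adjusted p = 0.0971).

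Ifit3 and Ifit1, whose promoters above hold several ISRE cores, varied most in this family. In WT cells Ifit3 read 5.83 and 5.83 in medium, 9.08 and 5.61 with IL-6, 7.29 and 5.73 with TGFb, and 7.64 and 6.17 with both. STAT3-deficient cells read Ifit3 at 6.79 and 6.15 in medium, 8.22 and 6.85 with IL-6, 5.91 and 6.27 with TGFb, and 7.38 and 6.7 with both. Its highest arrays were the replicate 1 arrays with IL-6, and its replicates in WT cells with IL-6 were 3.46 apart. In WT cells Ifit1 read 4.75 and 6.17 in medium, 7.89 and 6.3 with IL-6, 6.69 and 5.52 with TGFb, and 6.21 and 6.09 with both. STAT3-deficient cells read Ifit1 at 5.67 and 6.49 in medium, 7.64 and 6.23 with IL-6, 4.7 and 5.81 with TGFb, and 6.25 and 7.28 with both. Neither gene passed a test between genotypes or cytokines; the change of Ifit1 with IL-6 in WT cells was 1.63 (limma adjusted p = 0.367). Ifit2, Oas2 and Oasl1 ranged from 6.93 to 8.95, from 6.04 to 8.3 and from 5.55 to 7.13.

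The other antiviral effectors numbered 8, and Samhd1 was the member that differed between genotypes. Samhd1 encodes an enzyme that breaks down the deoxynucleotides that viruses and dividing cells need. In WT cells Samhd1 read 11.12 and 11.69 in medium, 12.94 and 12.81 with IL-6, 11.62 and 11.56 with TGFb, and 12.34 and 12.26 with both. STAT3-deficient cells read Samhd1 at 11.42 and 11.43 in medium, 11.8 and 10.93 with IL-6, 11.78 and 11.33 with TGFb, and 11.85 and 11.58 with both. Both WT arrays with IL-6 lay above all other 14 arrays. With IL-6, Samhd1 was 2.86-fold lower in STAT3-deficient than in WT cells (-1.51, SE 0.29, limma adjusted p = 0.0235), with values of -1.15 in replicate 1 and -1.88 in replicate 2. All 4 of its other probe sets were lower as well. The call was lost without WT IL-6 replicate 1 (-1.45, adjusted p = 0.0724), without STAT3-deficient IL-6 replicate 2 (-1.08, 0.085) and with array weights (0.0888). In WT cells, IL-6 against medium gave 1.47 (adjusted p = 0.0667, and 0.0337 with the block). The interaction of genotype and IL-6 was -1.05 (SE 0.29, limma adjusted p = 0.158). Averaged over conditions the genotypes differed by -0.53 (0.106, and 0.0475 with the block).

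Isg20, an exonuclease that degrades RNA, had its lowest values in WT cells with both cytokines. In WT cells Isg20 read 8.68 and 9.65 in medium, 8.71 and 8.64 with IL-6, 9.62 and 10.56 with TGFb, and 7.28 and 7.12 with both. STAT3-deficient cells read Isg20 at 9.15 and 9.54 in medium, 9.59 and 8.8 with IL-6, 8.34 and 10.79 with TGFb, and 9.63 and 9.7 with both. The 2 WT arrays with IL-6 and TGFb lay below all other 14, which read 8.34 to 10.79. The genotypes differed by 2.47 there (SE 0.63, limma adjusted p = 0.117, and 0.0534 with the block), which did not pass, nor did the change against medium in WT cells (-1.97, adjusted p = 0.139).

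Mx1, a dynamin-like GTPase that blocks viral ribonucleoproteins, was near the low end of the scale on most arrays. In WT cells Mx1 read 5.49 and 5.13 in medium, 7.04 and 4.75 with IL-6, 5.04 and 4.52 with TGFb, and 4.75 and 4.46 with both. STAT3-deficient cells read Mx1 at 5.52 and 5.17 in medium, 7.29 and 5.49 with IL-6, 5.13 and 4.46 with TGFb, and 4.81 and 4.46 with both. Only the replicate 1 arrays with IL-6 exceeded log2 6. Its difference with TGFb over all arrays was -1.03 (limma adjusted p = 0.0792, and 0.013 with the block), and replicate 1 exceeded replicate 2 by 0.83 (adjusted p = 0.0303). Cmpk2, a nucleotide kinase, lay at 5.17 to 6.29 and was 0.48 higher in replicate 1 (SE 0.1, limma adjusted p = 0.00979), and 0.11 higher by its other probe set. Rsad2, or viperin, lay at 6.34 to 8.28 and was 0.52 higher there (adjusted p = 0.0308), but its 2 other probe sets differed by less. Bst2, or tetherin, Mx2 and Eif2ak2, the kinase PKR, had 0 calls.

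**Figure D5:**
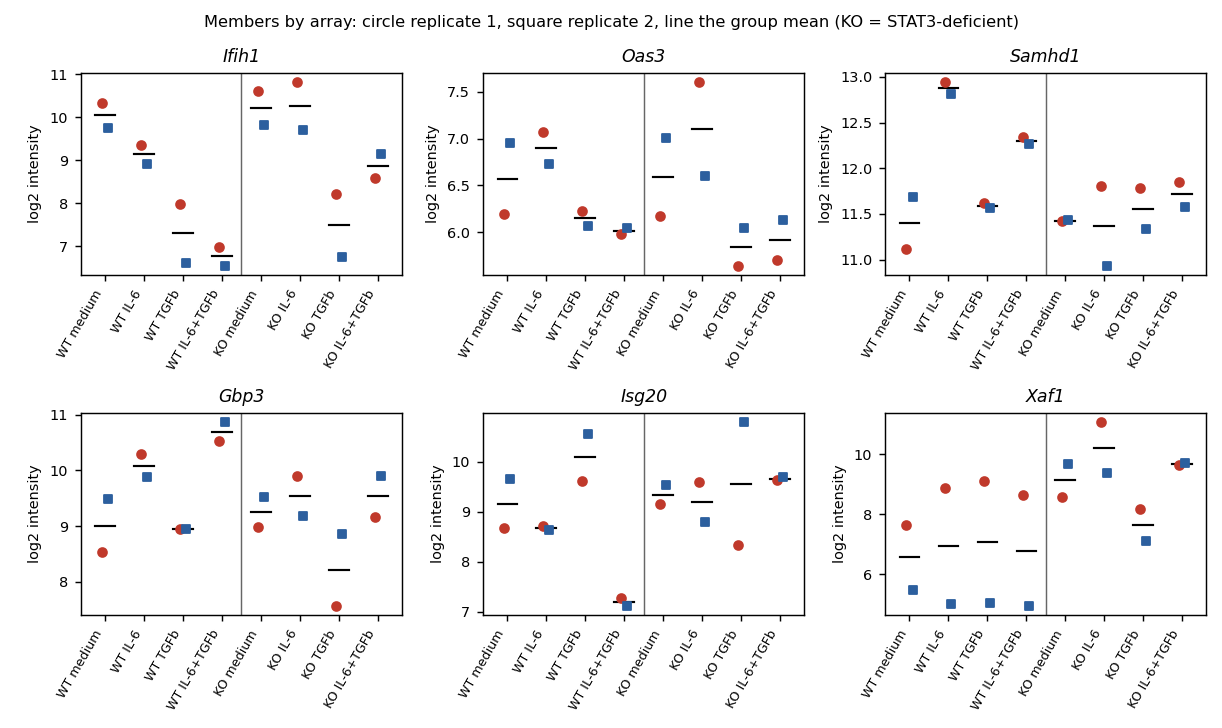
Log2 intensity (y axis) of 6 members in the 8 groups (x axis); red circles are replicate 1, blue squares replicate 2, and the line is the group mean of 2 arrays. Ifih1 and Oas3 lie low with TGFb, Samhd1 is highest in WT cells with IL-6, Isg20 is lowest in WT cells with both cytokines, and Xaf1 splits by replicate in WT cells.

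The GTPases of the GBP and IRG families, which attack the vacuoles of intracellular pathogens and are classical targets of interferon gamma, were measured with 7 members, and none was called. In WT cells Iigp1 read 8.01 and 10.77 in medium, 10.72 and 7.52 with IL-6, 11.46 and 9.69 with TGFb, and 11.18 and 9.51 with both. STAT3-deficient cells read Iigp1 at 9.49 and 10.88 in medium, 11.63 and 10.73 with IL-6, 7.07 and 10.25 with TGFb, and 11.54 and 11.58 with both. For Iigp1, replicate 1 minus replicate 2 was 3.2 in WT cells with IL-6 and -3.19 in STAT3-deficient cells with TGFb. In WT cells Gbp2 read 12.42 and 13.1 in medium, 13.9 and 13.39 with IL-6, 12.45 and 11.59 with TGFb, and 13.91 and 13.93 with both. STAT3-deficient cells read Gbp2 at 12.85 and 12.73 in medium, 13.47 and 12.11 with IL-6, 9.26 and 11.58 with TGFb, and 13.02 and 13.07 with both. Gbp2 was lowest on the array that goes against its label, and its TGFb change in STAT3-deficient cells was -2.37 (SE 0.64, limma adjusted p = 0.147), with -3.6 in replicate 1 and -1.15 in replicate 2.

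Gbp3 was the GTPase that came closest to a call. In WT cells Gbp3 read 8.53 and 9.48 in medium, 10.29 and 9.88 with IL-6, 8.95 and 8.95 with TGFb, and 10.53 and 10.86 with both. STAT3-deficient cells read Gbp3 at 8.98 and 9.53 in medium, 9.9 and 9.18 with IL-6, 7.57 and 8.85 with TGFb, and 9.17 and 9.9 with both. Both WT arrays with IL-6 and TGFb lay above the other 14. Against medium the change in WT cells was 1.69 (SE 0.46, limma adjusted p = 0.076, and 0.0362 with the block). Gbp7 and Irgm1, whose promoters are shown above, ranged from 7.38 to 11.12 and from 7.34 to 10.72, Irgm2 from 7.4 to 9.96 and Igtp from 11.58 to 13.87.

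Parp9 and Dtx3l, which form a ubiquitin ligase complex, and Parp14, a relative of Parp9, were lowest on WT medium replicate 1. In WT cells Dtx3l read 8.6 and 10.56 in medium, 10.84 and 10.82 with IL-6, 10.92 and 11.03 with TGFb, and 11.08 and 11.0 with both. STAT3-deficient cells read Dtx3l at 9.26 and 10.5 in medium, 10.54 and 10.17 with IL-6, 9.41 and 11.12 with TGFb, and 10.9 and 11.17 with both. Dtx3l was low on both replicate 1 arrays in medium and on STAT3-deficient TGFb replicate 1, and the other 13 arrays lay at 10.17 or above. In WT cells Parp14 read 8.45 and 9.14 in medium, 10.53 and 8.59 with IL-6, 10.09 and 8.85 with TGFb, and 9.76 and 9.45 with both. STAT3-deficient cells read Parp14 at 9.26 and 9.42 in medium, 10.12 and 9.26 with IL-6, 8.54 and 8.96 with TGFb, and 10.2 and 9.95 with both. None of the 3 genes was called. Tap1, a subunit of the transporter that brings peptides to MHC class I, was not called either. In WT cells Tap1 read 10.09 and 11.41 in medium, 11.65 and 10.99 with IL-6, 11.75 and 11.43 with TGFb, and 11.24 and 10.28 with both. STAT3-deficient cells read Tap1 at 10.46 and 10.68 in medium, 11.49 and 11.0 with IL-6, 9.34 and 11.47 with TGFb, and 11.47 and 11.24 with both.

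Among the remaining members, Xaf1 and Rtp4 varied most. Xaf1 encodes a partner of the apoptosis inhibitor XIAP. In WT cells Xaf1 read 7.64 and 5.49 in medium, 8.87 and 5.0 with IL-6, 9.1 and 5.04 with TGFb, and 8.63 and 4.95 with both. STAT3-deficient cells read Xaf1 at 8.58 and 9.67 in medium, 11.06 and 9.36 with IL-6, 8.19 and 7.11 with TGFb, and 9.63 and 9.7 with both. All 4 WT replicate 2 arrays lay at 4.95 to 5.49, under the level minimum, and all other 12 arrays lay at 7.11 or above. The genotypes differed over the 4 conditions by 2.32 (SE 0.78, limma adjusted p = 0.184, and 0.0375 with the block), by 0.81 in replicate 1 and 3.84 in replicate 2. The only other probe set of Xaf1 gave the opposite sign for this difference and for the difference between the replicate numbers.

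Rtp4, a chaperone that brings receptors to the cell surface, followed replicate 1. In WT cells Rtp4 read 5.81 and 6.66 in medium, 9.12 and 6.43 with IL-6, 7.56 and 6.19 with TGFb, and 8.17 and 6.93 with both. STAT3-deficient cells read Rtp4 at 7.75 and 6.19 in medium, 9.17 and 6.88 with IL-6, 6.15 and 5.91 with TGFb, and 8.55 and 7.98 with both. Replicate 1 was the higher one in every group but WT medium. Tor3a, an ATPase of the torsin family, was 0.43 higher in replicate 1 (SE 0.13, limma adjusted p = 0.0429), and 1 of its 2 other probe sets pointed the other way. Lgals3bp, a secreted glycoprotein that binds galectins, ranged from 6.85 to 10.19, Ifi27 from 9.04 to 10.62 and Ifi35 from 10.87 to 12.29, with 0 calls.

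The pathway around the members was read from lists of interferon receptors and signalling genes (20 tested of 22), interferon genes (5 of 10), further interferon-induced genes (32 of 41) and MHC class I presentation genes (12 of 14). Among the interferons, Ifnb1 lay at 5.13 to 6.17 on all 16 arrays. In WT cells Ifng read 4.7 and 8.65 in medium, 7.89 and 5.36 with IL-6, 8.57 and 4.46 with TGFb, and 5.7 and 5.13 with both. STAT3-deficient cells read Ifng at 6.15 and 9.78 in medium, 8.88 and 11.13 with IL-6, 4.39 and 7.8 with TGFb, and 9.83 and 10.97 with both. The replicates of WT medium and of WT TGFb stood in opposite order. Under IL-6 and TGFb both STAT3-deficient arrays lay above both WT arrays, by 4.13 in replicate 1 and 5.84 in replicate 2. On average that is 4.99, or 31.7-fold (SE 1.77, limma adjusted p = 0.326, and 0.194 with the block; unadjusted p = 0.0166), and it was not called. No interferon gene was called between genotypes or cytokines.

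Stat2, the partner of IRF9, was highest on WT IL-6 replicate 1. In WT cells Stat2 read 6.63 and 6.92 in medium, 8.99 and 7.12 with IL-6, 8.02 and 6.99 with TGFb, and 8.06 and 6.69 with both. STAT3-deficient cells read Stat2 at 6.95 and 6.88 in medium, 7.44 and 6.71 with IL-6, 6.49 and 7.08 with TGFb, and 7.37 and 6.92 with both. In WT cells Irf1, a transcription factor that interferon gamma induces, read 10.23 and 11.5 in medium, 11.96 and 10.84 with IL-6, 11.9 and 11.4 with TGFb, and 11.04 and 10.41 with both. STAT3-deficient cells read Irf1 at 10.99 and 11.45 in medium, 11.71 and 11.14 with IL-6, 9.49 and 11.35 with TGFb, and 12.11 and 12.13 with both. Neither was called in the 14 comparisons. Irf1 was lowest on STAT3-deficient TGFb replicate 1.

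With TGFb present, 2 of the 20 receptor and signalling genes were higher and 1 lower, 3 of 20 beside 9.25% of all genes called in either direction. Jak2, a kinase of the interferon gamma receptor, was lower (-0.83, SE 0.14, limma adjusted p = 0.00554). Ifngr1, the ligand-binding chain of that receptor, was 0.76 higher (adjusted p = 0.00603), and Mavs, the adaptor of RIG-I and MDA5, 0.64 higher (adjusted p = 0.0406). Jak2 was also lower in STAT3-deficient than in WT cells with IL-6 (-1.27, limma adjusted p = 0.038). It was the only one of the 20 in that comparison, beside 3.29% of all genes called in either direction. With the replicate number as a block, Ifngr1, Ifngr2 and Jak1 were called lower there too (limma adjusted p = 0.0466, 0.0232 and 0.0181), beside 11.5% of all genes in either direction. Ifngr2 was also lower under IL-6 and TGFb (0.00771, beside 2.48% of all genes). Averaged over the 4 conditions, Ifngr2 and Jak2 were lower (0.013 and 0.0417, beside 5.36% of all genes). The block also called Jak1 higher with TGFb (0.49, limma adjusted p = 0.154, and 0.0184 with the block), Ifngr1 higher in WT cells with IL-6 and TGFb than in medium (1.1, 0.0527 and 0.0339) and Ifngr2 in the interaction (-1.31, 0.357 and 0.0369). In these 3 comparisons the block called 16.3% and 6.4% of all genes and, in the interaction, 242 genes.

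Of the 32 further interferon-induced genes, 2 were lower with TGFb, beside 3.79% of all genes called lower, and 0 higher. With the block 4 were lower and 2 higher, beside 16.3% of all genes called in either direction. Epsti1, named for the interaction of epithelium and stroma, was lower (-1.64, SE 0.22, limma adjusted p = 0.0014), and also lower in WT cells with IL-6 and TGFb than in medium (-2.2, adjusted p = 0.0237). Gbp8, another GTPase of the GBP family, was lower with TGFb (-1.77, SE 0.46, adjusted p = 0.0364). The block added Nmi (-0.65, limma adjusted p = 0.087, and 0.023 with the block) and Pnpt1 (-0.48, 0.0767 and 0.0349) as lower, and Sp110 (0.37, 0.0687 and 0.0466) and Tnfsf10 (0.65, 0.0557 and 0.0287) as higher.

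Of the 12 tested genes listed for MHC class I presentation, 1 was called with TGFb, beside 9.25% of all genes called in either direction. That was Cd274, which encodes PD-L1, an inhibitory ligand and not a molecule of presentation. It was lower with TGFb (-0.91, SE 0.15, adjusted p = 0.00393) and in WT cells with IL-6 and TGFb (-1.99, adjusted p = 0.00428). No gene of this list or of the further interferon-induced genes was called between the genotypes. With the block, Mndal, a gene of the interferon-inducible p200 family, was called higher in STAT3-deficient cells under IL-6 and TGFb, under IL-6 and on average (limma adjusted p = 0.0476, 0.0422 and 0.0499). Tnfsf10 and Cd274 were called higher under IL-6 and TGFb (0.0338 and 0.023). In these comparisons the block called 2.48%, 11.5% and 5.36% of all genes in either direction. Between the replicate numbers, Ifngr2 and Jak1 were higher and Ifnar2 and Ptpn2 lower in replicate 1, and Herc6, Parp12, Slfn2, Tapbp and Ifna1 were higher. Ifna1 was 0.57 higher but lay low, at 6.07 to 7.4. The other tested interferon alpha genes, Ifna2, Ifna5 and Ifna9, differed by 0.03, 0.1 and -0.02 and were not called. In that comparison 19.8% of all genes were called in either direction.

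The genes outside the list that most resembled its mean over the 16 arrays were Gbp6 (Pearson correlation 0.94), Il17rb (0.9), Rnf213 (0.89), Trim30d and Helz2 (both 0.88), Ifit1bl1 (0.86), Smchd1 (0.85), and Tmem215, Dek and Rif1 (all 0.83). After the 8 group means were removed, they were Gbp6 (0.96), Helz2 (0.95), Trim30d (0.93), Sp3 and Cdkn2aip (both 0.92), Taf1, Gsdmcl2, H2-D1 and Guca2a (all 0.91) and 4933412E12Rik (0.89). Gbp6, Trim30d and Helz2 stood in both sets of 10. The points share arrays, groups and replicate numbers, and the correlations are given as a description.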

How the data were processed

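Gene expression was measured on Affymetrix arrays, 1 per sample, in 8 groups of 2 taken from the sample titles and genotype labels. The authors deposited linear intensity values, all whole numbers between 6 and 37243, made with RMA per the submitters' processing notes. Its version and settings, and how its usual log2 output became linear, are not stated in the sources used here. Log2 was taken with no pseudocount, and the deposited normalization was kept. The platform annotation gave 1 symbol to 34945 of 45101 probe sets, several to 932 and none to 9160, and 64 were controls. Promoter and gene names came from RefSeq tables of GRCm38.p6.

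All 16 arrays were fitted in limma 3.58.1 (R 4.3.3, with version 1.17.8 of data.table) with a mean per group (8 residual and 3.27 prior degrees of freedom). The 14 comparisons were tested two-sided with Benjamini-Hochberg adjustment over 13007 genes; 6 was the log2 level minimum on at least 2 arrays and 0.05 the threshold. The fitting script was tested on simulated data. Figures used matplotlib 3.10.9 (Python 3.11.15).

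Same-numbered arrays of different groups deviated together (28 pairs of groups, correlation 0.11 to 0.86, median 0.33), and the numbers stand in the titles. The main fit of the genotype and cytokine comparisons had no term for the replicate number, so its p-values ignore this pairing. A fit with the replicate number as a block, which uses it, was run as an alternative. The block is printed where it changes the call of a member or a pathway gene.

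Alternatives were the block, no level minimum or one of 7, an offset of 32 before log2, a further quantile normalization, the mean of probe sets, array weights, and leaving out each array. Exchanging the 2 replicate 1 arrays of STAT3-deficient cells with TGFb, or leaving out both, was added after seeing the data.

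The members and lists were chosen with earlier results of these data known. Named on all arrays were members called (up to 5 per comparison) and the 2 with the largest SD in each role; further values were chosen after they were seen. Precision is limited by having 2 arrays per group.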

Additional observations from a re-analysis of the deposited data

Results flagged for a closer look

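For 13 members or lists, 9 pairs of genotype or cytokine differences each were examined, 117 in all, and in 5 of them both replicates moved one way in the one difference and both the opposite way in the other. None of these 5 contrasts of differences was tested. They concern Gbp3 and Rtp4.

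For Gbp3, a GTPase of the GBP family, the genotype difference (STAT3-deficient minus WT) in medium was 0.46 in replicate 1 and 0.05 in replicate 2. Under IL-6 and TGFb it was -1.36 and -0.96, which is -1.41 relative to medium on average. Under IL-6 it was -0.39 and -0.7, or -0.8 relative to medium. Under TGFb it was -1.38 and -0.09, or -0.99 relative to medium, and the first of these values comes from the array that goes against its label.

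For Rtp4, a chaperone of receptors, the genotype difference under TGFb was -1.41 in replicate 1 and -0.28 in replicate 2. Under IL-6 and TGFb it was 0.37 and 1.05, which is 1.56 above that under TGFb. Under IL-6 it was 0.05 and 0.46, or 1.1 above that under TGFb. Both Rtp4 contrasts rest on the array labelled STAT3-deficient TGFb replicate 1.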

How the results depend on the processing

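With 2 arrays per group, calls changed with single arrays and with how the spread was estimated. No change of a single member that was called in the main or the block fit changed sign under an alternative. Replicate 1 means over the members did change sign with the exchanged arrays. Another probe set of Xaf1 and of Tor3a, read alone, also gave the opposite sign. Ifih1 with TGFb over all arrays was past the threshold in all 25 alternatives, with changes of -2.49 to -2.1 (adjusted p up to 0.00417). Of the 539 named values under an alternative, 408 kept their side of the threshold, 111 lost their call and 20 gained one. Scaling moved the median of all genes by at most 0.1 (between the genotypes under IL-6, after quantile normalization). Mx1, Cmpk2 and, in WT replicate 2, Xaf1 lay near or under the level minimum, where changes depend on the background. For single genes of the pathway lists, only the fit with the block is given; over all genes, counts are given for the other alternatives.

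With the replicate number as a block, members called were 1 for the genotypes under IL-6 and TGFb, 3 averaged over conditions, 2 for IL-6 and TGFb, 1 for IL-6 and 1 for TGFb against medium in WT cells, and 1 for TGFb in STAT3-deficient cells; in the other comparisons the block changed no count by over 1.5 times. All genes called rose with the block from 155 to 322, 126 to 697, 390 to 833, 37 to 218, 29 to 62 and 46 to 196 in that order, from 428 to 1490 for the genotypes under IL-6, from 18 to 38 for IL-6 and TGFb in STAT3-deficient cells, from 1203 to 2125 for TGFb over all arrays and from 46 to 242 for the interaction. With the mean of probe sets, 1 member was called for IL-6 in WT cells and 5 between the replicate numbers, and all genes called for TGFb in STAT3-deficient cells fell to 30. With array weights, 2 members were called for the genotypes under IL-6 and TGFb (450 genes), 0 under IL-6 (23 genes), 4 for IL-6 and TGFb in WT cells (979 genes) and 1 for TGFb in WT cells (54 genes); without a change for members, 12 genes were called for IL-6 in WT cells, 48 and 14 for IL-6 and TGFb and for TGFb in STAT3-deficient cells. The interaction called 25 genes after quantile normalization, 70 with the offset and 14 with the exchanged arrays, and TGFb in WT cells called 17 with the offset. The exchanged arrays gave 38 genes for IL-6 and TGFb in STAT3-deficient cells. Without both exchanged arrays, 3 members were called for IL-6 and TGFb in WT cells, 1 for TGFb over all arrays and 3 between the replicate numbers. Exchanged, the mean differences over members in replicate 1 were -1.04 and 0.02 between genotypes under IL-6 and TGFb and under TGFb, and -0.68 and 0.51 for these conditions against medium in STAT3-deficient cells. Quantile normalization gave 0.28 between the genotypes under IL-6 in replicate 1. The cause was not tested.

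Leaving out 1 array at a time gave 0 to 1 members between the genotypes under IL-6 and TGFb, under IL-6 and averaged, and 0 to 0 under TGFb and in medium. The 1 under IL-6 and TGFb came without either STAT3-deficient TGFb array, the 0 under IL-6 without WT IL-6 replicate 1 or STAT3-deficient IL-6 replicate 2, and the 1 averaged without STAT3-deficient TGFb replicate 2. It gave 0 to 3 for IL-6 and TGFb in WT cells (3 without either STAT3-deficient TGFb array), 0 to 3 for IL-6 in WT cells (3 without WT IL-6 replicate 2, 1 without either STAT3-deficient IL-6 array) and 0 to 0 for TGFb in WT cells. In STAT3-deficient cells it gave 0 to 0 for IL-6 and TGFb and for IL-6, and 0 to 1 for TGFb. For TGFb over all arrays it gave 1 to 6 (6 without WT IL-6 replicate 2), for the interaction 0 to 1 and between the replicate numbers 2 to 6. The last 1 for TGFb and the interaction came without STAT3-deficient TGFb replicate 2. All genes called changed as well, from 155 to between 28 and 206 for the genotypes under IL-6 and TGFb, from 428 to 27 and 635 under IL-6, 0 to 0 and 38 under TGFb, 126 to 27 and 391 averaged, 390 to 94 and 526, 37 to 3 and 370, and 29 to 6 and 56 for IL-6 and TGFb, IL-6 and TGFb alone in WT cells, 18 to 5 and 36 and 46 to 9 and 247 for IL-6 and TGFb and for TGFb in STAT3-deficient cells, 1203 to 667 and 1688 for TGFb over all arrays, 46 to 6 and 160 for the interaction and 2579 to 1397 and 2421 between the replicate numbers.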
